A study of Schizosaccharomyces pombe with 37 samples.

Results

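The subject is the comparison of the 3 total RNA-seq libraries labelled *ppn1D* with the 3 wild-type libraries of the same series, in *Schizosaccharomyces pombe* (fission yeast). Of the 6996 features in the count table, 5828 reached 1 CPM as the mean of these 6 libraries and were compared. CPM scales the reads on a feature to the depth of its library. The study asked which mutations allow small RNAs to silence a gene heritably, and it sequenced RNA from 10 strains with 3 libraries each. The wild type, SPB426, was *h-* and carried *leu1-32*, *ura4-D18*, *ade6-704* and an *ade6+* gene inserted at *trp1+*, and all strains shared these alleles. The strain labelled *ppn1D*, SPB3642, was listed with *ppn1D::kanMX* in addition, a replacement of *ppn1* by a drug resistance gene. In the 3 PAS strains (PAS-T4A, PAS-T4C and PAS-T4G) a base of the polyadenylation signal of the *trp1+* copy of *ade6+* was changed instead, and they served here as a second set of controls. All cultures grew exponentially in YES medium at 30 °C, and each genotype was 1 strain. The labels do not say whether replicates were separate cultures, so p-values measure the spread between these libraries, which may be technical.

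Ppn1 is a subunit of CPF, the cleavage and polyadenylation factor, and sits in its phosphatase module. CPF is the complex that cuts pre-mRNA at its 3′ end and adds the poly(A) tail. In fission yeast it forms a sub-complex with Swd22 and with Dis2, a type 1 protein phosphatase, while Ssu72 is the other phosphatase of the module. The module removes phosphates from RNA polymerase II and from elongation factors as polymerase passes the end of a gene, and it takes part in transcription termination.

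The targeted gene went against the label. In the 3 libraries labelled *ppn1D*, *ppn1* (SPCC74.02c) stood at 76.3, 77.3 and 86.1 CPM, from 153, 480 and 322 reads. In the 3 wild-type libraries it stood at 77.5, 79.3 and 62.8 CPM. The 2 sets overlapped, with 79.9 ± 5.36 against 73.2 ± 9.07 CPM (SD, n = 3 each), and the exact permutation test, two-sided, gave p = 0.6, where the smallest p this design allows is 0.1. The other 24 libraries of the series held 66.2 to 115.4 CPM. In the strains deleted for *dis2*, *ssu72* or *swd22*, by contrast, the deleted gene had 0 reads in every library. The part of *ppn1* that was replaced is not given in the sources used here, so the genotype of these 3 libraries is open, and each direction below belongs to the label alone.

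The 3 libraries labelled *ppn1D* held 2005246, 6206423 and 3741936 counted reads, and the wild-type libraries held 3986943, 6344396 and 3713098. A single read was worth 0.158 to 0.499 CPM in these 6 libraries. Markers of the labelled strain background were as the labels give them in part. *ura4*, removed in *ura4-D18*, had 0 reads in all 6 libraries. *mam1*, the transporter that exports the M-type pheromone, stood at 92.5 to 114 CPM, *mfm2* at 3.99 to 7.27 CPM and *mam2* at 1.99 to 5.61 CPM, while the other M-factor genes *mfm1* and *mfm3* had at most 3 reads in any of the 6 libraries. Of the P-cell genes, *map2* stood at 0.752 to 1.35 CPM and *map3* at 3.74 to 9.97 CPM. Mitochondrial transcripts took 8.01% to 13.97% of the reads in the libraries labelled *ppn1D* and 10.8% to 11.9% in wild type, and their part in the results was not tested.

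With a change of 2-fold or more required beside an adjusted p under 0.05, 42 features differed from wild type (0.721% of those tested), of which 38 were higher (0.652%) and 4 lower (0.0686%). The values are from limma on log2(CPM + 1), fitted over all 30 libraries with Benjamini-Hochberg adjustment over the 5828 features. With no minimum change 145 features passed (2.49%), 83 higher (1.42%) and 62 lower (1.06%). Against the PAS strains, 49 features passed with the 2-fold minimum (0.841%), 36 higher (0.618%) and 13 lower (0.223%), and 489 without it (8.39%).

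Nearly all of the 2-fold rises lay side by side on chromosome III. When members were put in chromosome order, 37 of the 38 fell in a single run of neighbouring features that began with *ssp2* (SPCC74.03c), the feature next to *ppn1*, and ended with *sgf73* (SPCC126.04c). The run held 104 annotated features, of which 88 were members and 16 were below 1 CPM, 3 of these with no read in any of the 6 libraries. Of its 88 members, 69 were higher in the libraries labelled *ppn1D* at an adjusted p under 0.05 and 0 were lower, a share of 78.4% against 1.42% higher among all features tested. edgeR called 74 and DESeq2 72 of the 88 higher and 0 lower, and 0 were lower at an unadjusted p under 0.05. In 80 of the 88 the lowest library labelled *ppn1D* lay above the highest wild-type library, and in 0 was the order the opposite, where 10.7% of all features were higher without overlap and 7.4% lower. The run was found from these values, so its counts describe it and carry no test of the run itself.

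**Figure D1:**
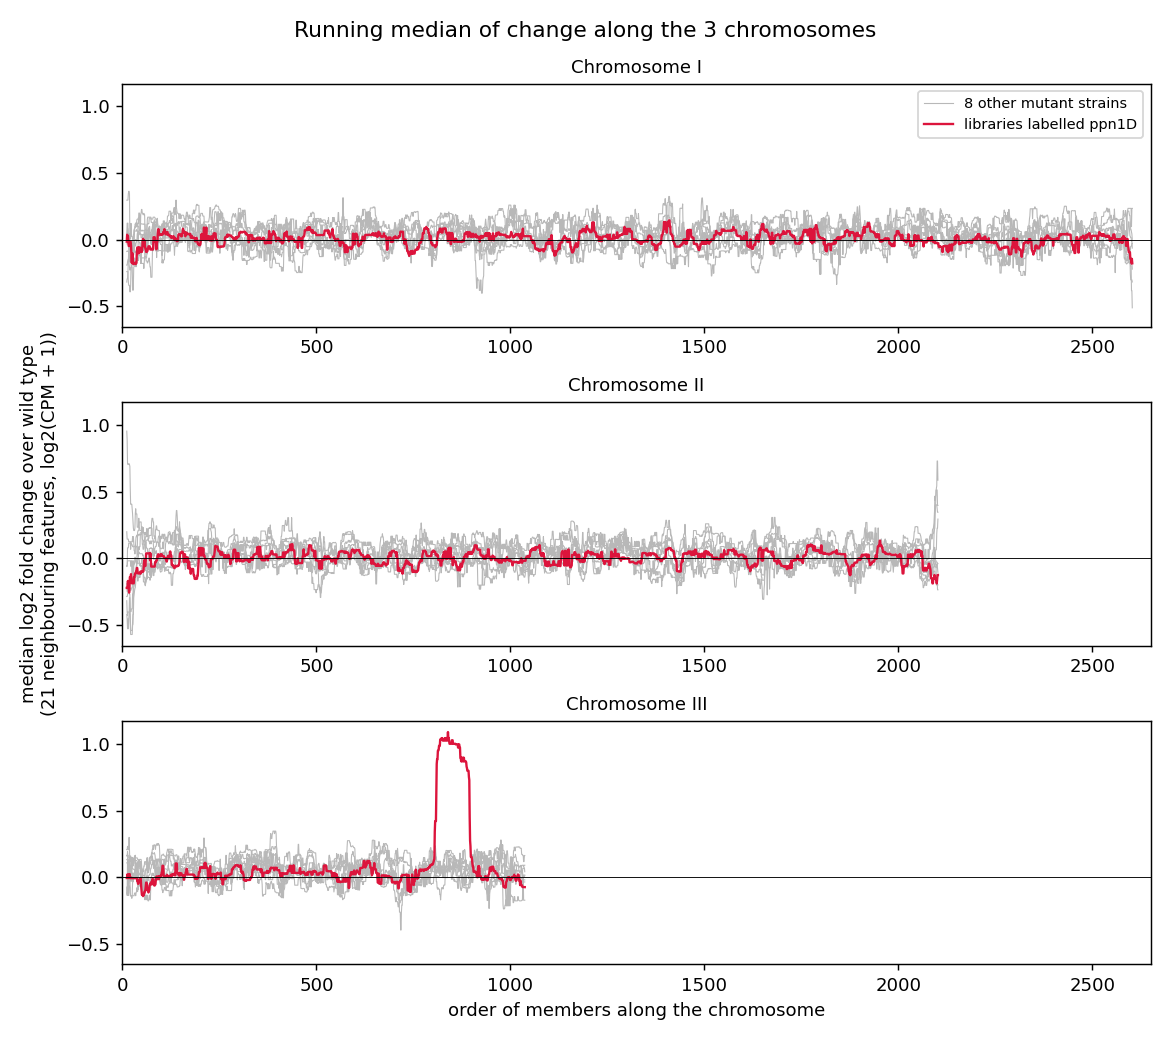
Running median of the log2 fold change over wild type (log2(CPM + 1)) in windows of 21 neighbouring members, plotted against their order on chromosomes I, II and III, for the libraries labelled *ppn1D* (red) and the 8 other mutant strains (grey). The red line reaches 1.09 on chromosome III and stays between −0.26 and 0.15 in windows with no feature of the run.

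The size of the rise was close to 2-fold along the whole run. Its members had a median log2 fold change of 0.96, with the middle 50% of values between 0.82 and 1.09 and the extremes at −0.08 and 1.43. Among the 69 members with a wild-type mean of at least 10 CPM, for which a plain ratio of mean CPM is steady, the median ratio was 2.01 and the middle 50% lay between 1.84 and 2.15. In 60 of the 69 the ratio was between 1.75 and 2.5, in 8 it was lower and in 1 higher. Outside the run only 5 of 4632 features of that level had a ratio between 1.75 and 2.5, and their median ratio was 1.01.

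The median differed little with position and strand within the run, and was lower in noncoding and in weakly expressed members. Split into 4 sets of 22 members by distance from *ppn1*, the run had median log2 fold changes of 1.01, 1.03, 0.98 and 0.87, in that order. The 46 members on the plus strand had a median of 0.97 and the 42 on the minus strand a median of 0.95. The 71 protein-coding members had a median of 1.00, and 64 of them passed the test. The 17 noncoding members had a median of 0.67, and 5 passed. Level went with the number that passed. Of the 19 members with a wild-type mean under 10 CPM, 4 passed, against 40 of 43 at 10 to 100 CPM and 21 of 21 at 100 to 1000 CPM. The median log2 fold change was 0.60 in the first of these sets and 1.00 in the second. The pseudocount understates changes of weak features, and the parts of class and level in these medians were not told apart.

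**Figure D2:**
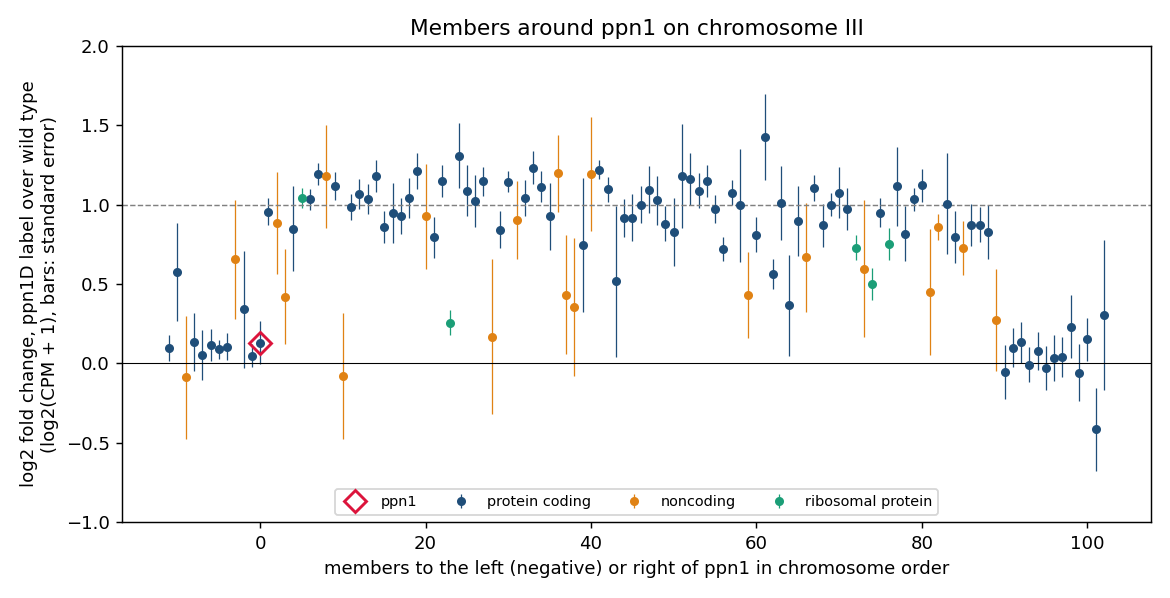
Log2 fold change of the libraries labelled *ppn1D* over wild type (log2(CPM + 1), bars: standard error of the limma fit) for members on either side of *ppn1* (open diamond) in chromosome order, coloured by class. The points step up from *ppn1* at 0.13 to *ssp2* at 0.96, stay near 1 (dashed line), and step down between *sgf73* at 0.83 and *mrpl17* at −0.05.

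Both ends of the run were sharp. *ssp2*, the catalytic subunit of the AMP-activated protein kinase, stood at 211, 219 and 201 CPM in the libraries labelled *ppn1D* and at 108 CPM in each wild-type library to 3 digits. Its log2 fold change was 0.96 ± 0.08 (SE), with limma adjusted p = 1.58e-10. Its neighbour *ppn1* had 0.13 ± 0.14 (SE), adjusted p = 0.871. On the far side of *ppn1*, *sly1*, which binds the SNARE proteins of vesicle fusion, had 0.05, the transporter gene *hmt1* 0.11 and the ribosome assembly gene *mdn1* 0.09, none of which passed. Between them, the weakly expressed *mug24* (1.67 CPM in wild type) and SPNCRNA.505 (0.693 CPM) had 0.34 and 0.66, with adjusted p = 0.877 and 0.618.

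At the other end *sgf73*, a subunit of the SAGA co-activator, stood at 71.8, 70.9 and 63.1 CPM against 35.9, 42.4 and 36.4 CPM in wild type, a log2 fold change of 0.83 ± 0.17 (SE), limma adjusted p = 0.00165. *mrpl17*, for a mitochondrial ribosomal protein, is the next protein-coding member. It stood at 22.9, 26.1 and 29.1 CPM against 26.3, 27.1 and 27.5 CPM, with overlapping groups and a log2 fold change of −0.05. Between the pair lies the noncoding SPNCRNA.1265, at 10.6 ± 4.99 against 8.01 ± 0.913 CPM (SD, n = 3 each), where the groups overlapped. The 50 members beyond *ppn1* had a median log2 fold change of 0.06, and the 50 beyond *sgf73* had a median of 0.01. None of these 100 passed the adjusted p in limma, edgeR or DESeq2, and 2 in each set of 50 had an unadjusted p under 0.05.

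**Figure D3:**
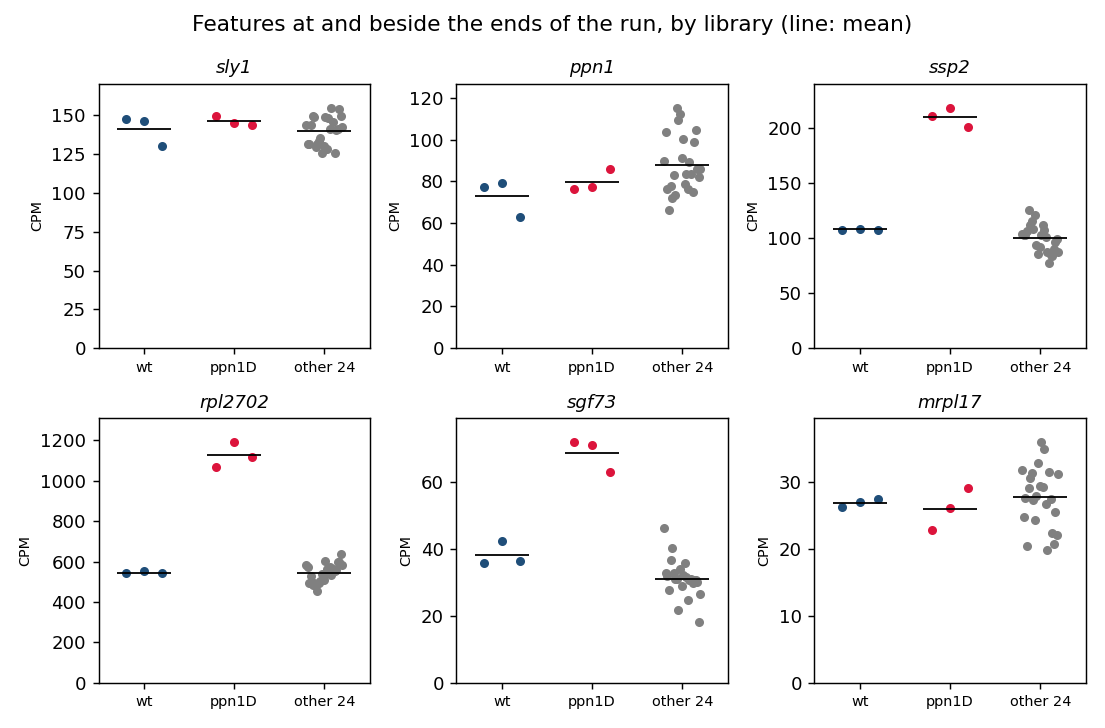
CPM of 6 genes at and beside the ends of the run in the 3 wild-type libraries, the 3 libraries labelled *ppn1D* and the other 24 libraries of the series (points: libraries, line: mean). *ssp2*, *rpl2702* and *sgf73* lie higher in the 3 libraries labelled *ppn1D* than in all others, and *sly1*, *ppn1* and *mrpl17* do not.

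All 3 libraries labelled *ppn1D* showed the rise to the same extent. Over the 69 members with at least 10 CPM in wild type, the median ratio to the wild-type mean was 2.02, 2.03 and 2.01 in the 3 libraries, although their depths differed and their mitochondrial shares were 13.97%, 8.01% and 10.4%. Each had between 63 and 66 of the 69 members above 1.5 times the wild-type mean. The wild-type libraries themselves had median ratios of 0.992 to 1.01, and the other 24 libraries 0.986 to 1.08 with at most 7 members above 1.5 times. The 88 members took 3.38% to 3.77% of the reads in the libraries labelled *ppn1D*, 2.07% to 2.08% in wild type and 1.79% to 2.21% in the other 24.

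**Figure D4:**
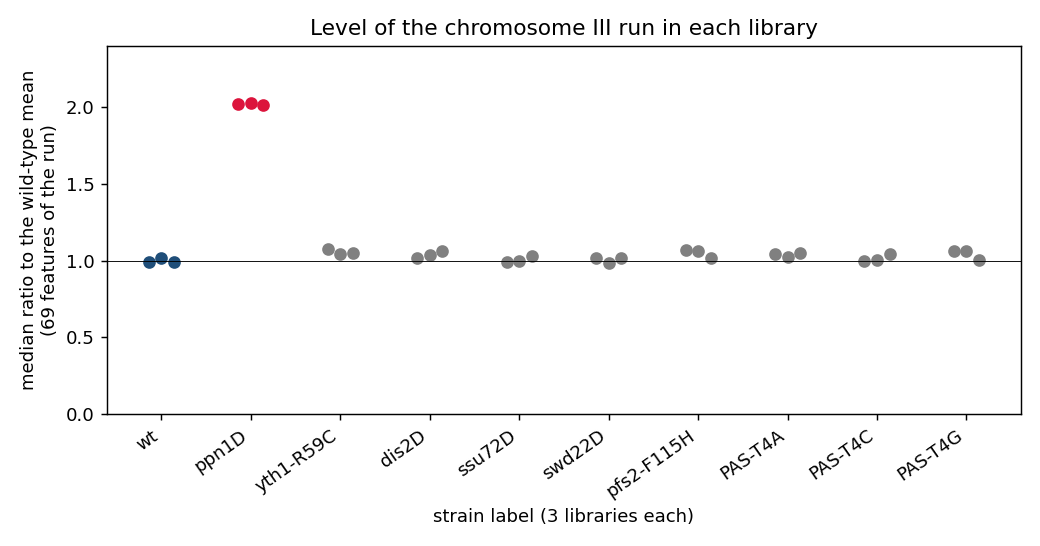
Median ratio to the wild-type mean over the 69 members of the run with at least 10 CPM in wild type, for each of the 30 libraries by strain label (3 points each). The 3 libraries labelled *ppn1D* lie at 2.01 to 2.03 and the other 27 between 0.986 and 1.08.

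No run of that length appeared elsewhere in these libraries or in the other strains. In the libraries labelled *ppn1D*, 85 consecutive windows of 21 members had a median above 0.7. In *dis2D* the longest such stretch was 8 windows, at an end of chromosome II, where a window reached 0.96, and in the other 7 mutant strains no window passed 0.7. By chromosome, 72 features were higher and 9 lower among 1047 members on chromosome III, of which 69 of the higher ones were in the run. On chromosome I, 5 were higher and 34 lower among 2614, and on chromosome II, 6 were higher and 19 lower among 2116. Grouped by the cosmid prefix of their systematic names, members fell into 483 prefixes, and 9 of these held at least 3 features that passed. Of the 9, 8 lay wholly or partly in the run, among them SPCC18, where 17 of 18 members were higher, SPCC576 with 15 of 18 and SPCC1739 with 14 of 15. In SPCC126, where the run ended, 4 of 15 were higher. The remaining prefix, SPAC11D3 on chromosome I, had 1 higher and 2 lower among 18.

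The rise was also present against the second controls. Relative to the 9 PAS libraries, 74 of the 88 members were higher at a limma adjusted p under 0.05 (4.26% of all features were). In limma 0 were lower (4.14% of all), and the median log2 fold change was 0.95. edgeR and DESeq2 called 75 and 74 of the 88, 0 of them lower. The 2 comparisons share the 3 libraries labelled *ppn1D*, so they are not separate observations of those libraries. *ssp2* stood at 89.7 ± 7.86 CPM in the PAS libraries (SD, n = 9, range 77.3 to 101), below each library labelled *ppn1D*.

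The largest rise of all was that of SPCPB1C11.02, annotated as an amino acid permease, at 17.95, 26.1 and 21.1 CPM against 5.77, 8.51 and 8.08 CPM in wild type. Its log2 fold change was 1.43 ± 0.27 (SE), limma adjusted p = 0.00069. *dph7*, which acts in diphthamide synthesis on elongation factor 2, followed at 57.4, 34.6 and 41.4 against 18.6, 14.8 and 17.8 CPM, a log2 fold change of 1.31 ± 0.21. In neither did the groups overlap, but both genes are weakly expressed, and their libraries were spread more than those of the abundant genes in the run. *ptc1*, a type 2C protein phosphatase, stood at 109, 118 and 111 against 50.7, 45.9 and 45.5 CPM, a log2 fold change of 1.23 ± 0.10. *mpg1*, which makes the GDP-mannose used for glycosylation, stood at 1047, 1112 and 1116 against 483, 444 and 476 CPM, and had the smallest adjusted p of all members, 3.48e-17 (log2 fold change 1.22).

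The run held genes of many unrelated functions, and they rose by similar amounts. *tpx1*, the peroxiredoxin that removes hydrogen peroxide, stood at 1943, 1901 and 1890 against 923, 878 and 862 CPM (ratio 2.15). *caf1*, a deadenylase subunit of the CCR4-NOT complex, stood at 136, 147 and 153 against 64.2, 61.3 and 65.2 CPM (ratio 2.29). Metabolic genes included *fum1* (fumarate hydratase), with a ratio of 2.23, and *cox13* (a subunit of cytochrome c oxidase), with 2.28. Genes of RNA polymerase III were represented by *rpc53* (1.83) and *rpc34* (1.81), nuclear pore genes by *nup186* (2.22) and *npp106* (2.12), and the proteasome by *rpt3* (1.94). Kinases and phosphatases included *mak3*, a phosphorelay sensor kinase (2.05), *ksg1* (2.20) and *ppe1*, a PP6-type phosphatase (1.98). *cdc11*, the scaffold of the septation initiation network, had 2.23, and *pku70*, which binds broken DNA ends and telomeres, had 1.85. All of these passed the test and none overlapped between groups.

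Some of the genes in the run that passed belong to processes near the study's subject. *hrr1* encodes the helicase of the RNA-directed RNA polymerase complex, which makes double-stranded RNA for siRNA production in heterochromatin. It stood at 101, 98.3 and 89.3 CPM against 52.9, 48.4 and 41.7 CPM, a log2 fold change of 1.00 ± 0.12 (SE), limma adjusted p = 1.51e-07. It was the only 1 of the 12 RNAi genes listed that passed, and also the only 1 of them in the run. The median over the other 11 was 0.07. *set5*, annotated as a histone lysine methyltransferase, had a ratio of 2.06. *ams2*, a GATA-type factor that activates histone genes, stood at 126, 110 and 113 against 54.2, 57.7 and 55.5 CPM (log2 fold change 1.04, adjusted p = 1.87e-08). Of the 10 histone genes listed, 0 passed in either direction in limma, edgeR or DESeq2, with a median of 0.09 and 1 unadjusted p under 0.05. Against the PAS libraries 3 of the 10 were higher and 0 lower, with a median of 0.17, where 4.26% of all features were higher. *amt1*, an ammonium transporter, stood at 242, 188 and 204 CPM where wild type had 119 ± 3.99 CPM (SD, n = 3), a log2 fold change of 0.81. It was the 1 gene of 10 nitrogen-responsive permeases that passed, and also the only 1 of them in the run.

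A few abundant genes of the run rose by clearly less than 2-fold over wild type. Of the 5 members with a wild-type mean over 1000 CPM, 4 passed, and the median log2 fold change of the 5 was 0.72. *rpp0*, the stalk protein of the large ribosomal subunit, had the smallest ratio of the 69 well-expressed members, 1.20, at 2373, 3130 and 2902 CPM against 2254, 2316 and 2417 CPM. One of its 3 libraries lay within the wild-type range, and it did not pass (log2 fold change 0.26 ± 0.08, limma adjusted p = 0.0862). *rps20* had a ratio of 1.42, *rps2* 1.66 and *rpl15* 1.69, and all 3 passed. *ssa2*, an Hsp70 chaperone, had 1.65, at 10229 ± 939 against 6199 ± 358 CPM (SD, n = 3 each). SPCPB1C11.03, annotated as a cysteine transporter, had 1.48. Against the PAS libraries the log2 fold changes were 0.99 for *rps20*, 0.95 for *rps2* and 0.94 for *rpl15*, near the median of the run, and 0.64 for *ssa2*, 0.43 for SPCPB1C11.03 and 0.15 for *rpp0*. *rpl2702*, the other ribosomal protein gene of the run, was not of this kind, with 1068, 1189 and 1117 against 542, 553 and 541 CPM and a ratio of 2.06. Ribosomal protein and chaperone genes outside the run were lower than wild type at the median, as given below, and the part of that in these smaller ratios was not tested. Only reads that mapped uniquely were counted, and the part of reads shared with similar genes in these ratios was not tested.

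The 19 members of the run that did not pass were mostly weakly expressed. Apart from *rpp0*, none had a wild-type mean above 32.5 CPM, 12 of the 19 were noncoding, and 18 had a log2 fold change above 0. The exception was the antisense RNA SPCC18.03-antisense-1, at 1.14 against 1.26 CPM (log2 fold change −0.08 ± 0.40 SE), a level at which single reads matter. A change was not detectable at this depth for that RNA. SPNCRNA.1258 stood at 31.4, 78.8 and 52.7 against 42.6, 31.8 and 23.2 CPM, where the groups overlapped. The antisense RNAs that passed were *ams2*-antisense-1, *imt2*-antisense-1 and *pku70*-antisense-1, with ratios of 1.93, 2.43 and 1.69. Reads were counted by strand, and the sense partners of these 3 also passed. The libraries are from whole cultures, so a change in every cell and a larger change in part of the cells cannot be told apart. The DNA of the strain was not analysed here.

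Outside the run few features changed, and most of these fell by modest amounts. Of the 5740 members outside it, 76 passed the adjusted p (1.32%), 14 higher and 62 lower, and 58 of the 62 were within 2-fold of wild type, with a median log2 fold change of −0.38. Only 5 reached 2-fold. Against the PAS libraries, a comparison that uses the same 3 libraries labelled *ppn1D*, 35 of the 62 were lower, 9 were higher and 18 did not pass, and 7 of the 14 were higher while the other 7 did not pass (4.26% of all features were higher and 4.14% lower). The count of 76 against wild type depended on single libraries. Without wild-type replicate 2 it was 33, without *ppn1D* replicate 3 it was 40 and without wild-type replicate 1 it was 48. With library totals taken over the reads outside the run, an alternative added after the data were seen, 24 were higher and 41 lower. In the run, 61 of the 69 features that passed did so in all 18 alternatives that refitted the model, and outside it 19 of the 76 did.

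**Figure D5:**
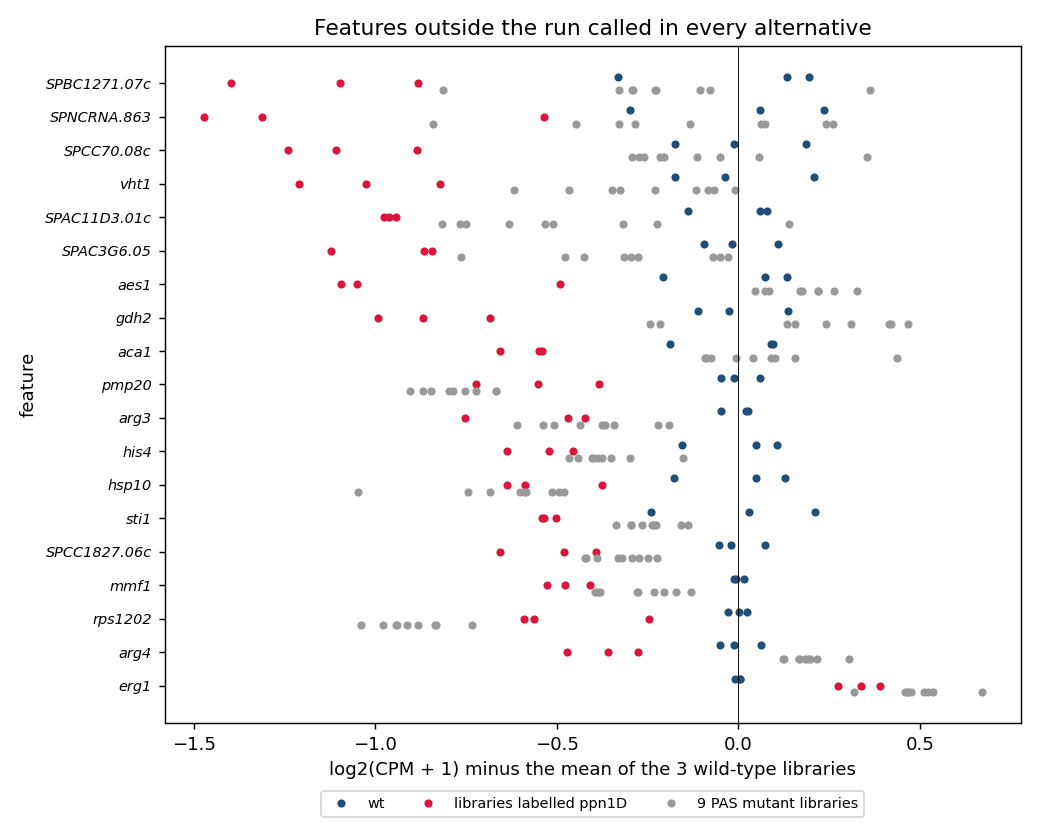
Levels of the 19 features outside the run that passed in every refitted alternative, as log2(CPM + 1) minus the mean of the 3 wild-type libraries (points: wild type, libraries labelled *ppn1D*, and the 9 PAS libraries). From SPBC1271.07c at the top to *arg4* the 3 red points lie to the left of the wild-type points, and for *erg1* to the right. The 9 PAS libraries lie on the same side for *pmp20* (−0.90 to −0.67), *hsp10* (−1.05 to −0.48), *rps1202* (−1.04 to −0.73) and *erg1* (0.32 to 0.67). They also lie to the left of all wild-type points for *arg3* (−0.61 to −0.19), SPCC1827.06c (−0.42 to −0.22) and *mmf1* (−0.39 to −0.13). For *arg4* they lie on the other side, to the right of all wild-type points. For *aes1* they lie at 0.05 to 0.33 and overlap the wild-type points. Every alternative kept wild type as the reference.

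The 4 falls of at least 2-fold were those of SPBC1271.07c, SPNCRNA.863, SPCC70.08c and *vht1*. SPBC1271.07c, annotated as an N-acetyltransferase, stood at 17.0, 24.7 and 21.1 CPM against 53.2, 50.9 and 36.6 CPM, and the groups did not overlap. Its log2 fold change was −1.13 ± 0.17 (SE), and against the PAS libraries it was −0.90. SPCC70.08c, annotated as a methyltransferase, stood at 19.4, 25.1 and 21.4 against 46.9, 53.9 and 41.7 CPM, and its log2 fold change was −1.08 ± 0.14 (limma adjusted p = 1.14e-06). The noncoding SPNCRNA.863 stood at 111, 57.5 and 64.4 against 190, 168 and 131 CPM (−1.11 ± 0.20, adjusted p = 0.000268), with 1 library nearer to wild type than the other two.

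*vht1*, the plasma membrane transporter of biotin (vitamin H), stood at 1184, 1365 and 1042 CPM against 2137, 2351 and 2789 CPM in wild type, a log2 fold change of −1.02 ± 0.14 (SE), limma adjusted p = 4.18e-06. In the PAS libraries it ranged from 1570.3 to 2397 CPM, above all 3, with a log2 fold change of −0.77. *bio2*, for biotin synthase, fell too, at 506, 455 and 397 against 552, 543 and 589 CPM (log2 fold change −0.32 ± 0.08, adjusted p = 0.0161), and it passed in 14 of the 18 refitted alternatives. *gdh2*, the NAD-dependent glutamate dehydrogenase, stood at 588, 539 and 668 against 1181, 1054 and 995 CPM, a log2 fold change of −0.85 against wild type and −1.04 against the PAS libraries. The only 2-fold rise outside the run was the antisense RNA SPAC9.08c-antisense-1, at 47.4, 30.0 and 18.2 against 17.3, 10.9 and 14.8 CPM. One of its 3 libraries was close to the highest wild-type library, and it passed in 15 of the 18.

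Some of the falls are described here by their annotation, picked after the values were seen. In arginine synthesis, *arg3* (ornithine carbamoyltransferase) stood at 64.3, 81.2 and 78.6 against 111, 111 and 106 CPM, a log2 fold change of −0.55 ± 0.11 (SE), limma adjusted p = 0.00219. *arg4* and *arg5*, the 2 subunits of the arginine-specific carbamoyl-phosphate synthase, had −0.37 and −0.29, and *arg12*, argininosuccinate synthase, had −0.44. These were 4 of the 10 *arg* genes, whose median was −0.15, where 1.06% of all features were lower. *his4* of histidine synthesis had −0.54, the aspartate semialdehyde dehydrogenase gene SPCC1827.06c −0.51, *met17* −0.39, *lys12* −0.35 and *ser1* −0.21, and all 5 passed. Genes of these other pathways that did not fall were not counted. The PAS libraries too lay below the wild-type mean for *his4*, at −0.47 to −0.15 on the log2 scale. The libraries labelled *ppn1D* lay at −0.64 to −0.46 there. For SPCC1827.06c the PAS libraries lay at −0.42 to −0.22 and the libraries labelled *ppn1D* at −0.66 to −0.39. In each of these genes the ranges overlapped, so a fall from wild type was not particular to the label. Over the 18 refitted alternatives, *arg3*, *arg4*, *his4* and SPCC1827.06c passed in all, *arg12* in 15, *arg5* and *lys12* in 14, *met17* in 13 and *ser1* in 10. Against the PAS libraries the values were −0.15 for *arg3*, which did not pass there (adjusted p = 0.393), −0.56 for *arg4*, −0.72 for *arg5* and −0.41 for *arg12*.

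Chaperone genes other than *ssa2* fell or did not pass. Of the 13 heat shock chaperone genes measured, 4 were lower in limma, where 1.06% of all features were, and edgeR and DESeq2 called 5 and 7 lower. The 4 were *sti1* (log2 fold change −0.53), which links Hsp70 with Hsp90, *wos2* (−0.39), the p23 partner of Hsp90, *aha1* (−0.42), an activator of Hsp90, and *hsp78* (−0.37), a mitochondrial disaggregase. The median over the 12 outside the run was −0.22, where all members had 0.01. *sti1* stood at 470, 482 and 472 against 792, 698 and 579 CPM, and it passed in all 18 refitted alternatives, where *wos2* passed in 17, *aha1* in 13 and *hsp78* in 11. *hsp10*, the mitochondrial co-chaperonin, was not on the list and fell from 227 ± 24.3 to 157 ± 15.4 CPM (SD, n = 3 each), while in the PAS libraries it stood at 146 ± 16.5 CPM (SD, n = 9). That difference from the PAS libraries did not pass (log2 fold change 0.10, limma adjusted p = 0.489).

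Cytosolic ribosomal protein genes took opposite directions against the 2 sets of controls. Of the 140, 9 were lower than wild type (1.06% of all features were), none of them in the run, and the 4 that were higher were all in the run, with a median of −0.16 for the 135 outside it. Against the PAS libraries 34 of the 140 were higher (4.26% of all features were) and 0 lower, with a median of 0.12. There 1 was lower at an unadjusted p under 0.05, and edgeR and DESeq2 called 28 and 22 higher and 0 lower. Unlike the median against wild type, these PAS values include the 5 genes of the run. *rps1202*, for example, stood at 504, 405 and 397 CPM, below the 587, 599 and 608 CPM of wild type and above the 291 to 359 CPM of the PAS libraries. A direction for this family therefore holds only for a named set of controls.

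Genes of the module itself and of the processes it serves did not pass against wild type. Of the 5 genes of the CPF phosphatase module 0 passed, and 0 had an unadjusted p under 0.05. They include *swd22* at 43.2 ± 2.84 against 39.2 ± 1.498 CPM, *dis2* at 222 ± 7.39 against 212 ± 3.35 CPM and *ssu72* at 13.4 ± 3.09 against 16.4 ± 0.123 CPM (SD, n = 3 each). None passed among 8 genes of the other CPF modules (median log2 fold change −0.03) or 8 termination factors (0.10). Of 10 kinases of the polymerase tail and Spt5 genes (−0.01) and 6 thiamine genes (0.11), none passed. Nor did any of 6 phosphate genes, regulators of the phosphate response among them (−0.06), or of 7 meiotic mRNAs removed through Mmi1 (0.06). The same held for 10 genes of heterochromatin assembly (0.06) and 9 genes whose loss is known to aid silencing by siRNAs (0.02). edgeR and DESeq2 called 0 in each of these lists as well. An unadjusted p under 0.05 was seen for 2 termination factors, 1 phosphate gene, 2 heterochromatin genes and 1 gene of the last list, and for 0 genes of the others. Against the PAS libraries 2 of the 6 phosphate genes and 1 gene of the other CPF modules were higher, where 4.26% of all features were. Lower were 1 termination factor, 1 heterochromatin gene and 1 Mmi1 target, where 4.14% of all features were. From the other lists 0 genes passed in limma. *ade6*, the gene targeted for silencing in the study and read here in strains without its siRNAs, stood at 343, 393 and 375 CPM against 376, 424 and 412 CPM. The groups overlapped, and the exact permutation test, two-sided, gave p = 0.2.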

How the data were processed

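Total RNA-seq of 30 libraries was used, and 7 small RNA samples were not analysed here. The authors made the libraries with a stranded kit and sequenced single reads of 50 bases. They aligned them with STAR (version 2.7.3a in the submitters' processing notes) to the ASM294 genome and counted uniquely mapped reads by strand with featureCounts, leaving out reads on several genes. The deposited values are CPM per feature, and all of them (100%, within 0.05 reads) were whole multiples of 1 read per library, so whole reads were recovered for count tests. Reads without a listed feature were no row of the table.

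Features were compared where the 6 libraries averaged 1 CPM or more (the nearest on each side were SPAC10F6.14c-antisense-1 at 1.00 CPM and *mug95* at 0.998 CPM). limma 3.58.1 (R 4.3.3) was fitted to log2(CPM + 1) over all 30 libraries (20 residual degrees of freedom, trended variance), with a pseudocount of 1 CPM, so fold changes of weak features are understated. Exact permutation tests served single genes. Neighbour order and names came from RefSeq's ASM294v3, to which 6850 features matched. That build is not the authors', so no coordinates or sequences are given. Features were named as the targeted gene, its module and neighbours, *ade6* and *ura4*, the 20 largest rises and 10 largest falls without overlap, list members that passed, and prefixes with at least 3 features that passed. *mrpl17*, SPNCRNA.1265, the *arg* genes and others outside this rule were named after their values were seen. The members and lists were chosen with earlier results of these data known. Alternatives changed the pseudocount, filter, scaling, samples, block and test (edgeR 4.0.16, DESeq2 1.42.0), and the fit was tested on simulated data.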

Additional observations from a re-analysis of the deposited data

How the results depend on the processing

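The count of 2-fold changes against wild type (42) was between 31 and 57 in every alternative that kept the minimum change, and 145 without one. In the run on chromosome III the count of 69 was 63 to 74 throughout. Outside it, the 76 became 40 in the 6-library fit, 31 at an adjusted p under 0.01 and 142 with edgeR, whose 2-fold calls there were 17 against 5. Leaving out 1 library at a time gave 33 to 75. Against the PAS strains the 49 became 28 with a pseudocount of 4 CPM. *ppn1* had a log2 fold change of 0.03 to 0.19 in all refits. Leaving out 1 library at a time turned the sign of 3 features that did not pass: *sly1* (−0.0090 to 0.083), *mrpl17* (−0.13 to 0.031) and SPNCRNA.1265 (−0.046 to 0.58). Same-numbered libraries of the 2 groups deviated together with correlations of 0.09, 0.22 and 0.02, so the numbers were not taken as pairs. With the replicate block in the 6-library fit the counts were 48 for 2-fold changes, 73 in the run and 65 outside it. The causes were not tested. Depth limits the weak features: 3 reads are worth up to 1.496 CPM in the shallowest of the 6 libraries.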

Other observations

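Other gene groups gave mainly values below the test. None of 9 iron uptake genes differed from wild type (median log2 fold change −0.19), 3 of them had an unadjusted p under 0.05, and against the PAS libraries 6 of the 9 were lower (median −0.34), where 4.14% of all features were. Of 13 core stress response genes 0 passed against wild type (median −0.04), 2 had an unadjusted p under 0.05, and against the PAS libraries 4 were higher and 1 lower, where 4.26% of all features were higher. Of 37 features of the mitochondrial genome 0 passed in limma, with a median of −0.35 and 9 lower at an unadjusted p under 0.05, while edgeR called 1 and DESeq2 2 lower. For the iron and stress genes edgeR and DESeq2 called 0. Among 864 noncoding RNAs 7 were higher, 5 of them in the run on chromosome III, and 3 lower. Over all features tested, 1.42% were higher and 1.06% lower.

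Members with the prefix SPAC11D3 on chromosome I went both ways, 2 lower and 1 higher among 18. SPAC11D3.01c, of the Con-6 family, stood at 11.5, 11.6 and 11.8 CPM against 24.6, 24.9 and 21.3 CPM in wild type, while SPAC11D3.15, a 5-oxoprolinase, stood at 163, 130 and 129 against 107, 101 and 80.5 CPM. Neither pair of groups overlapped. SPAC11D3.02c was the other lower member, and it passed in 8 of the 18 refitted alternatives. For SPAC11D3.01c the PAS libraries lay between −0.81 and 0.14 from the wild-type mean on the log2 scale. All but PAS-T4G replicate 2, at 0.14, lay at −0.81 to −0.22, below every wild-type library (−0.14 to 0.08). The libraries labelled *ppn1D* lay between −0.98 and −0.94.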
